A study of Mus musculus with 1073 samples.

Results

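The megakaryocytes (Mk) of the mouse yolk sac at E10.5 (embryonic day) were the 73 cells, of 926 in the filtered single-cell RNA-seq table, that had been sorted as TER119- CDH5- CD45- CD41high and captured in a single run of the Fluidigm C1 system, on a chip made for cells of 10 to 17 µm. They were taken by their label, and not by any expression value. They were compared with 3 populations of the same stage, mouse strain (C57BL/6) and flow cell, which were endothelium (Endo, TER119- CD45- CD41- CDH5+, 61 cells), haematopoietic progenitor cells (HPC, TER119- CDH5- CD45+ CD41low, 87 cells) and macrophages (Mac, TER119- CDH5- CD41- CD45+, 25 cells). Values of 3 primitive erythrocytes (EryP, CD41- CD45- CDH5- TER119+) of that stage and of 37 Mk of E8.5 are given beside them. Yolk sacs without any engineered allele or treatment named in the labels were dissociated with collagenase and dispase, and no embryo or pool was named for a cell. Each E10.5 population was 1 capture, and the Mk were in lane 3, the HPC in lane 4, the Mac and EryP in lane 5 and the Endo in lane 6, so that population, capture and (apart from Mac and EryP) lane cannot be told apart. The E8.5 Mk were read on another flow cell, so that stage and sequencing run cannot be told apart either. With 1 sample per population no test between populations was possible, and the values below describe these cells.

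Megakaryocytes are the cells that make platelets. A maturing megakaryocyte builds receptors for collagen, von Willebrand factor, thrombin and ADP, fills alpha and dense granules with adhesive proteins and small molecules, and extends long microtubule-driven processes, the proplatelets, from which platelets bud. In the yolk sac the first megakaryocytes appear together with primitive erythrocytes, before haematopoietic stem cells exist. CD41, CD45 and CDH5 are the products of *Itga2b*, *Ptprc* and *Cdh5*, so these 3 genes were used by the sort and their levels are not a finding.

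The 73 Mk held between 546033 and 4272429 read counts each (median 1668712) and between 5220 and 9171 detected genes (median 7763). Levels are in CPM, which here are the counts of a cell scaled by its scran size factor, and detection of a gene means at least 1 count in the cell. In 12 Mk the mitochondrial share of counts was between 24.5% and 72.0%, whereas it was at most 8.08% in the other 61. Shares above 20% were also found in 7 Endo, 1 HPC and 4 Mac. Transcripts of *Xist* and of Y-linked genes were found together in 8 Mk, 26 Endo, 19 HPC and 6 Mac, and no doublet caller was run. The pair of index sequences of 71 of the 73 Mk was also used for a cell in another of the E10.5 lanes. What the means become without these cells is described with the genes set apart.

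The label was checked on markers that the sort did not use. All 5 of *Pf4*, *Gp9*, *Gp1bb*, *Vwf* and *Ppbp* were detected in 55 of 73 Mk (75.3%, 95% interval 63.9 to 84.7; intervals are exact and cover counting error only), and in 35 (47.9%, 36.1 to 60.0) when 10 counts of each were asked for. Each Mk held between 2 and 5 of them. No Endo, HPC or Mac held all 5, and the most in 1 cell was 2, 4 and 2. Of 14 endothelial markers other than *Cdh5*, on counts thinned to one depth, an Mk held between 1 and 6 (median 3) and an Endo between 5 and 14, and *Aplnr*, *Emcn*, *Sox7*, *Sox18* and *Cldn5* were at 0 in every Mk. Of 13 macrophage markers an Mk held at most 2, with *C1qa*, *C1qb*, *C1qc*, *Adgre1*, *Fcgr1* and *Timd4* at 0 in every Mk. Of 13 erythroid markers an Mk held at most 7, with a median of 4, and of 13 progenitor and myeloid markers other than *Ptprc* also at most 7, where an HPC held between 5 and 13. Among the endothelial genes *Kdr*, the VEGF receptor FLK1, had a median of 56.8 CPM in Mk and of 1084 CPM in Endo.

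A gene was taken as expressed in Mk at a mean of 100 CPM or more and detection in at least 50% of cells, and as set apart when its mean CPM + 1 was at least 4-fold higher than in each of Endo, HPC and Mac. This held for 5.22% of 2221 expressed genes, called set apart below. With the bounds reversed, 8 of 1149 genes expressed in all 3 other populations were at least 4-fold lower in Mk (0.696%). The HPC had the next highest mean for 66 of the genes set apart, Endo for 32 and Mac for 18. Of the genes set apart 59 were detected in all 73 Mk, and for 0 of them did every Mk lie above every cell of the other 3 populations. Just past the bound were *Rap2a*, *Bcl2l1* and *Lcp2*, with a smallest log2 ratio of 2.01, 2.02 and 2.02, and just short of it were *Fermt3*, *Rabgef1* and *Ippk* (1.99, 1.99 and 2.00). Without the cells of a mitochondrial share above 20% in any population 99 genes were called, and 92 of these were set apart with them, so that 24 lost the call. Of the genes set apart 16 had a mean in the other 61 Mk more than 1.5-fold below that of all 73. Leaving out so few of the 73 cells cannot raise a mean by 1.5-fold, so no rise of that size could be seen. The like share of all expressed genes was not computed. For 6 genes (*Nbeal2*, *Ube2l6*, *Lrrc41*, *9530068E07Rik*, *Tmem126b* and *Atg2b*) more than 50% of the summed CPM came from 1 cell. Without their highest cell 13 genes had a mean under 100 CPM, which were these 6 and *G6b*, *Syn3*, *Tbxas1*, *Capn3*, *Tnnt1*, *Rap2a* and *RP23-242J3.2*.

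Against each population alone the balance differed. Of the genes expressed in either population, 278 of 3194 were at least 4-fold higher in Mk than in Endo (8.70%) and 578 were lower (18.1%). Against Mac, 309 of 3073 were higher (10.1%) and 511 lower (16.6%). Against HPC, 204 of 2581 were higher (7.90%) and 66 lower (2.56%), and with each cell scaled by its own total instead of the size factor the split was 150 higher and 81 lower. On medians over cells in place of means the splits were 1129 higher and 524 lower against Endo, 183 and 168 against HPC, and 1003 and 261 against Mac. Scaling by the total moved the median log2 ratio of all genes against HPC by -0.22. Genes with the largest smallest ratio, and the 8 lower genes, are shown in the heatmap of population means.

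**Figure D1:**
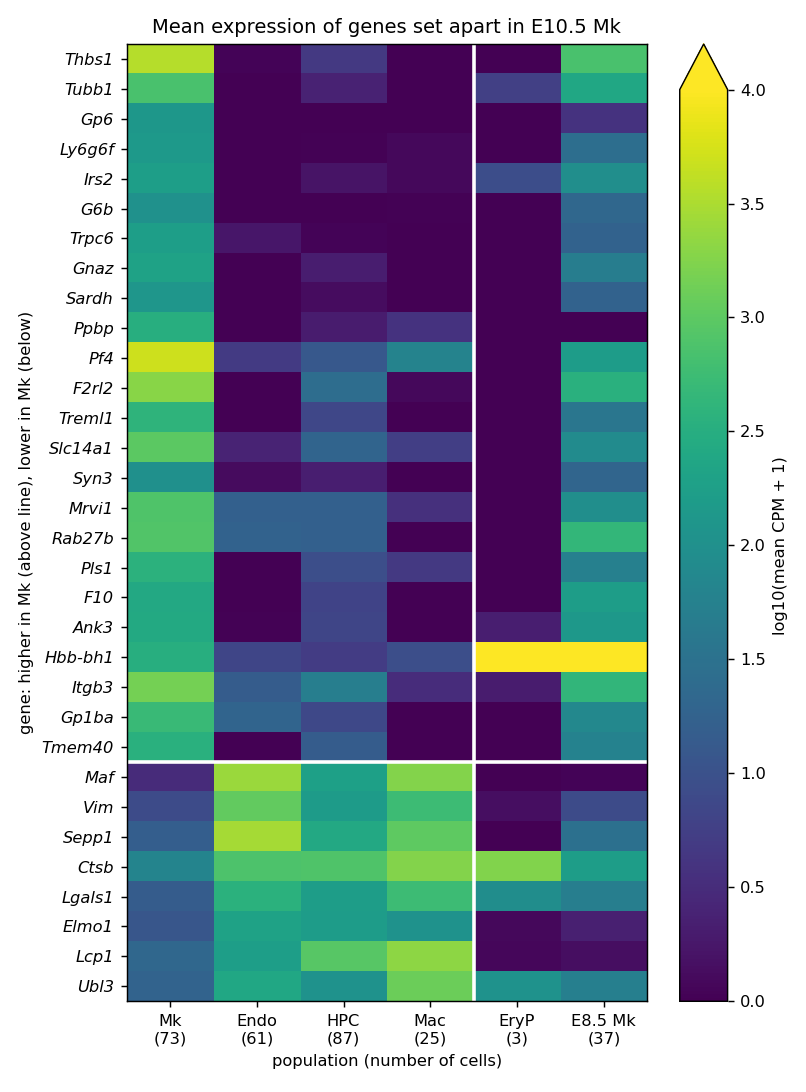
Mean expression, as log10 of mean CPM + 1 (colour), of genes most set apart in E10.5 Mk (above the horizontal line, in order of their smallest ratio) and of the 8 genes lower in Mk than in Endo, HPC and Mac (below it), in 6 populations with the number of cells in brackets. *Thbs1* and *Pf4* are the brightest Mk genes, with means of 3569 and 4902 CPM, and *Hbb-bh1* is brighter in EryP than in Mk and runs past the top of the colour scale in EryP and E8.5 Mk.

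The gene most set apart was *Thbs1*, which encodes thrombospondin 1, an adhesive glycoprotein stored in alpha granules (chr2:118111876-118127133, plus strand, GRCm38). Its level in Mk was between 5.5 and 26695 CPM, with a median of 2523, and in 72 of 73 Mk it lay above every Endo, HPC and Mac, whose highest cell had 167 CPM. Only 1 Mk therefore overlapped with the other populations. The mean was 3569 CPM in Mk and 3.55 in HPC, a 1004-fold difference, and in the 61 Mk of low mitochondrial share the mean was 2525 CPM. Second was *Tubb1*, the beta tubulin isotype of platelets, from which the marginal band and proplatelet microtubules are made. It was detected in 73 of 73 Mk (95% interval 95.1 to 100) and in 4 of 87 HPC (4.60%, 1.27 to 11.4), and had no count in 61 Endo, which allows a share of up to 4.92%, or in 25 Mac (up to 12.0%). Mk cells ranged from 1.08 to 2157 CPM (median 687), and the mean was 504-fold that of HPC. No fold is given against Endo or Mac, where no read was counted.

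*Gp6*, the collagen receptor of platelets, and *Ly6g6f*, a platelet surface protein of the immunoglobulin superfamily, followed. *Gp6* was detected in 62 of 73 Mk (84.9%, 74.6 to 92.2; lowest 0, median 82.7, highest 725 CPM) and in 1 of 87 HPC, and had no count in Endo or Mac. *Ly6g6f* was detected in 70 of 73 Mk (lowest 0, median 74.6, highest 879 CPM), in 2 HPC and in 1 Mac. The bases before the RefSeq starts (GRCm38.p6) of the first 3 of these genes with a single annotated start are printed because all 3 were nearly silent in the other populations. Each is the 250 bases before the start, read 5′ to 3′ on the strand of the gene, and capitals mark the GATA motif AGATAA, which blood GATA factors bind, or its reverse complement TTATCT.
Tubb1, chr2:174450345-174450594, plus strand: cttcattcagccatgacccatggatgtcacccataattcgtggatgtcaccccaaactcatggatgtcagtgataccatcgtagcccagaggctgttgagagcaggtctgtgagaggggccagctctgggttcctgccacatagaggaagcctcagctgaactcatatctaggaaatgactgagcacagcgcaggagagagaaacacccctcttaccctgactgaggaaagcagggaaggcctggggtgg
Gp6, chr7:4397745-4397994, minus strand: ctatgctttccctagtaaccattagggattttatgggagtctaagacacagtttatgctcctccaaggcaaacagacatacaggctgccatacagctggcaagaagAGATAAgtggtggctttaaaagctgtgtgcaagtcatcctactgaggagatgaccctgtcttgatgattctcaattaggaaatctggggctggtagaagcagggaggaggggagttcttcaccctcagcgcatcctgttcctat
Ly6g6f, chr17:35085596-35085845, minus strand: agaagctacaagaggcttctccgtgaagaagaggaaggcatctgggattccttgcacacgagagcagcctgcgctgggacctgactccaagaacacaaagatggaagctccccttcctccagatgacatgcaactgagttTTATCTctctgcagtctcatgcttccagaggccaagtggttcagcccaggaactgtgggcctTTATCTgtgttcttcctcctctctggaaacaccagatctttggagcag
The motif was found 0 times before *Tubb1*, 1 time before *Gp6* and 2 times before *Ly6g6f*. Of the windows of the genes set apart, 15 of 110 held it on either strand (13.6%), as did 4 of 17 windows of the 25 named genes (23.5%), 797 of 12900 windows of all genes in the filtered table (6.18%) and 9.99% of all annotated windows. For CAGGAAG, a motif of ETS factors, the shares for the genes set apart, the filtered table and all windows were 6.36%, 10.4% and 10.8%. For TGTGGTT, a motif of RUNX factors, they were 6.36%, 3.22% and 4.40%, and for TGAGTCA, which NF-E2 and AP-1 share, 7.27%, 3.18% and 4.46%. Of the 17 windows of the named genes 3 held the ETS motif (17.6%), 0 the RUNX motif and 2 the NF-E2 motif (11.8%), so that for ETS and RUNX the named genes and all genes set apart lay on opposite sides of the filtered table. Both strands were searched, none of these 4 motifs contains another, and a match describes letters and not a bound site.

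Cargo of the alpha granules, the large secretory granules of platelets, held the gene with the highest mean of those set apart, *Pf4*. Of 23 measured genes 11 were expressed in Mk. Set apart from all 3 populations were 5 of these (45.5%, beside 5.22% of all expressed genes), which were *Thbs1*, *Pf4*, *Ppbp*, *F5* and *Mmrn1*. The median log2 ratio of the list was 1.90 against Endo, 4.50 against HPC and 5.20 against Mac, where all genes compared had medians of 0.01, 0.00 and -0.15. *Pf4*, the chemokine platelet factor 4, was between 132.8 and 19413 CPM in Mk (median 4302) with a mean of 11.6 CPM in HPC and 60.3 in Mac. *Ppbp*, another chemokine of the granule, was far less even, with detection in 57 of 73 Mk (78.1%, 66.9 to 86.9), a median of 15.3 and a highest cell of 5722 CPM. *Mmrn1*, multimerin 1, which binds factor V, had a mean of 886 CPM in Mk and 212, 141.6 and 27.3 in Endo, HPC and Mac. *F5*, factor V itself, had 132.6 CPM in Mk against 12.4 in Endo, and 94.9 CPM, under the bound, in the 61 cells. Cargo genes shared with 1 other population were *Timp3*, an inhibitor of matrix proteases (1285 CPM in Mk, 382 in Endo, 12.4 in HPC), *Clu*, clusterin (1133 in Mk, 472 in Mac, 49.0 in HPC) and *Vwf* (259 in Mk, 163 in the 61 cells, 84.9 in Endo). *Sparc* (14.9 CPM) and *Fn1*, fibronectin (1.81 CPM), had means of 3578 and 1645 CPM in Endo, and *Timp1* had no count in Mk.

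**Figure D2:**
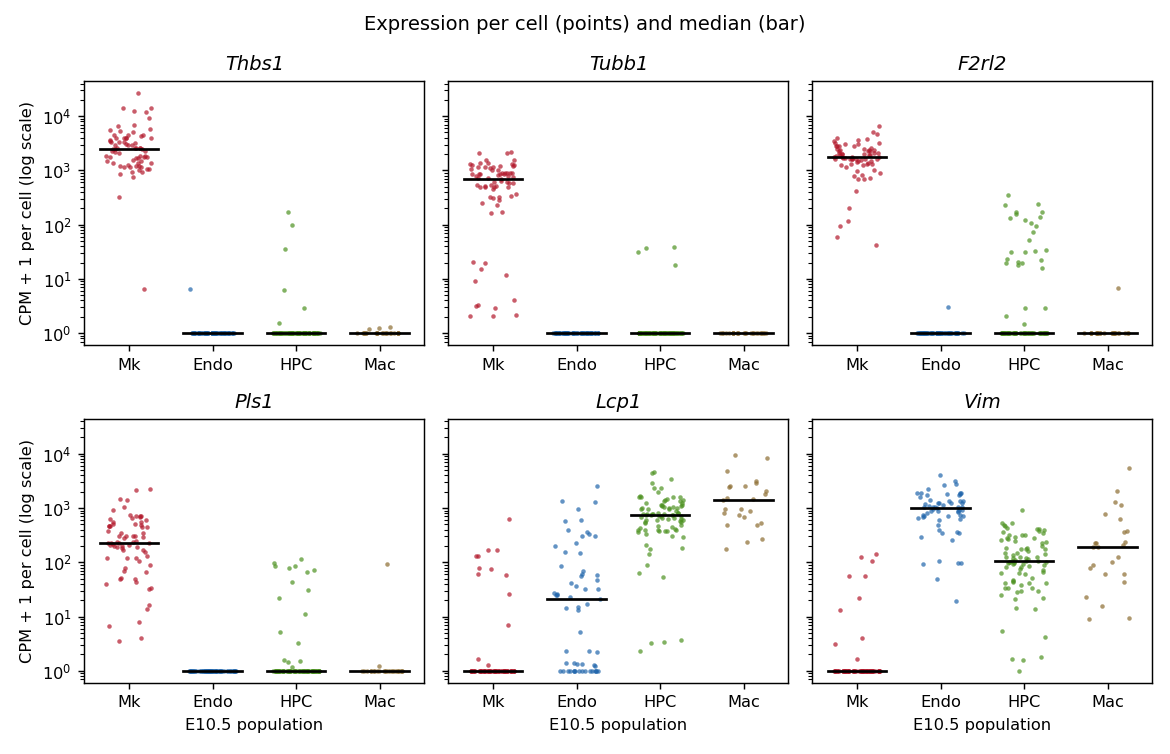
Level per cell (points, CPM + 1 on a log axis) and median (bar) of 4 genes set apart in E10.5 Mk and 2 lower in Mk, in the 4 populations compared (73 Mk, 61 Endo, 87 HPC, 25 Mac). The Mk medians are 2523, 687, 1758 and 230 CPM for *Thbs1*, *Tubb1*, *F2rl2* and *Pls1* and 0 for *Lcp1* and *Vim*, and *Tubb1* falls into a high and a low group of Mk.

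Of 25 adhesion receptors 13 were expressed in Mk and 8 of these set apart (61.5%, beside 5.22% of all expressed genes). Among the 8 was *Itga2b*, which the sort used, so that its call is not a finding. The median log2 ratios were 1.06 against Endo, 4.19 against HPC and 6.31 against Mac. *Itgb3*, the beta chain that pairs with CD41 in the fibrinogen receptor, was at 240 to 9813 CPM (median 1048), and 72 of 73 Mk lay above every cell of the other 3 populations. *Treml1*, a receptor held in alpha granules, had a mean of 400 CPM in Mk against 6.13 in HPC and no count in Endo or Mac. *Cd9*, a tetraspanin of the platelet surface, had 1267 CPM in Mk and 223, 123.2 and 23.9 in Endo, HPC and Mac. *Cd226*, an activating receptor, was in 48 of 73 Mk (65.8%, 53.7 to 76.5; mean 74.5 CPM) and had no count in any cell of the 3 other populations, but it was under 100 CPM. *Clec1b*, the podoplanin receptor CLEC-2, was shared with Endo (343 against 164 CPM). *G6b*, an inhibitory receptor, was in 66 of 73 Mk with a median of 58.4 CPM, and its mean without the highest cell was 98.7 CPM, under the bound. Some adult platelet receptors were low. *Cd36*, a scavenger receptor, had no count in 73 Mk, which allows a share of up to 4.11%, and was at 987 CPM in Endo. *Selp*, P-selectin, was in 13 of 73 Mk (17.8%, 9.84 to 28.5), *Itga2*, the alpha chain of the other collagen receptor, in 16 (21.9%, 13.1 to 33.1).

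Receptors for soluble agonists were likewise divided into high and low members. Of 17 measured receptors 8 were expressed and 5 of these set apart (62.5%, beside 5.22% of all expressed genes), among them *F2rl2*, *P2ry1*, *F2r* and *P2rx1*. The median log2 ratio was 4.42 against Endo, 3.03 against HPC and 6.74 against Mac. *F2rl2*, the thrombin receptor PAR3, ranged from 41.6 to 6710 CPM in Mk (median 1758), and 68 of 73 Mk lay above the highest other cell, an HPC of 352 CPM. *F2r*, the thrombin receptor PAR1, was at 129.1 to 4196 CPM (median 1429), and its mean in Endo was 327 CPM. Per kilobase of exon *F2rl2* made up 57.9% of the mean CPM of these receptors in Mk, *F2r* 35.5% and *F2rl3*, PAR4, 6.55%. For ADP and ATP, *P2ry1* (162 CPM) and *P2rx1* (418 CPM) were expressed, but *P2ry12*, the receptor blocked by clopidogrel, was in only 14 of 73 Mk (19.2%, 10.9 to 30.1) with a mean of 2.71 CPM and had its highest mean in Mac (153.3 CPM). *Tbxa2r*, the thromboxane receptor (6.17 CPM), and *Adra2a*, the epinephrine receptor (4.44 CPM), had medians of 0, and *Lair1* was not detected.

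The signalling genes behind these receptors were expressed more broadly. Of 37 genes for integrin activation and signalling 22 were expressed and 10 of these set apart (45.5%, beside 5.22% of all expressed genes). The median log2 ratios were 3.54, 2.36 and 1.95 against Endo, HPC and Mac. *Gnaz*, a G protein alpha subunit that inhibits adenylyl cyclase, was in 73 of 73 Mk (lowest 10.7, mean 198, highest 1075 CPM) and had a mean of 1.07 CPM in HPC, a 186-fold difference, with no count in Endo or Mac. *Rap1b*, the small GTPase that switches on platelet integrins, had a mean of 2800 CPM in Mk and 388, 351 and 673 in Endo, HPC and Mac. Its exchange factor *Rasgrp2* had 303 CPM in Mk against 71.9, 29.1 and 6.22. Without the cells of high mitochondrial share both missed the bound, with smallest log2 ratios of 1.56 and 1.49. *Prkca*, protein kinase C alpha, had 294 CPM against 15.4 in HPC, and *Prkcq*, the theta form, 258 against 32.2. *Prkcb*, the beta form, was at 0.255 CPM. *Fermt3*, kindlin 3 (1841 CPM), and *Rgs18*, a brake on G proteins (1230 CPM), were high in Mk but missed the bound, the first against Mac (464 CPM) and the second against HPC (391 CPM). Outside the list, *Trpc6*, a cation channel opened by diacylglycerol, was in 65 of 73 Mk (median 76.2, highest 967 CPM) with a mean of 0.733 CPM in Endo and 0.113 in HPC.

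Cyclic nucleotide signalling, which keeps platelets at rest, was expressed in part. Of 12 genes 4 passed the filter of expression in Mk. All 4 were set apart, beside 5.22% of all expressed genes. These were *Gucy1a3*, a subunit of the nitric oxide receptor (539 CPM in Mk, 44.6 in HPC), *Pde5a* (377 against 17.5 CPM) and *Pde3a* (176 against 2.44 CPM), which break down cyclic nucleotides, and *Prkar2b*, a regulatory subunit of protein kinase A (793 against 68.0 CPM). *Mrvi1*, the target of cGMP kinase at the calcium store, was at 57.2 to 2041 CPM in Mk (median 798) and 50.4-fold higher than in HPC. *Pde3b* and *Pde2a*, other phosphodiesterases, were at 0.572 and 1.56 CPM in Mk and at 45.8 CPM in HPC and 212 CPM in Endo. Of 5 genes of the list compared with Endo 4 were higher in Mk and 1, *Pde2a*, was lower.

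**Figure D3:**
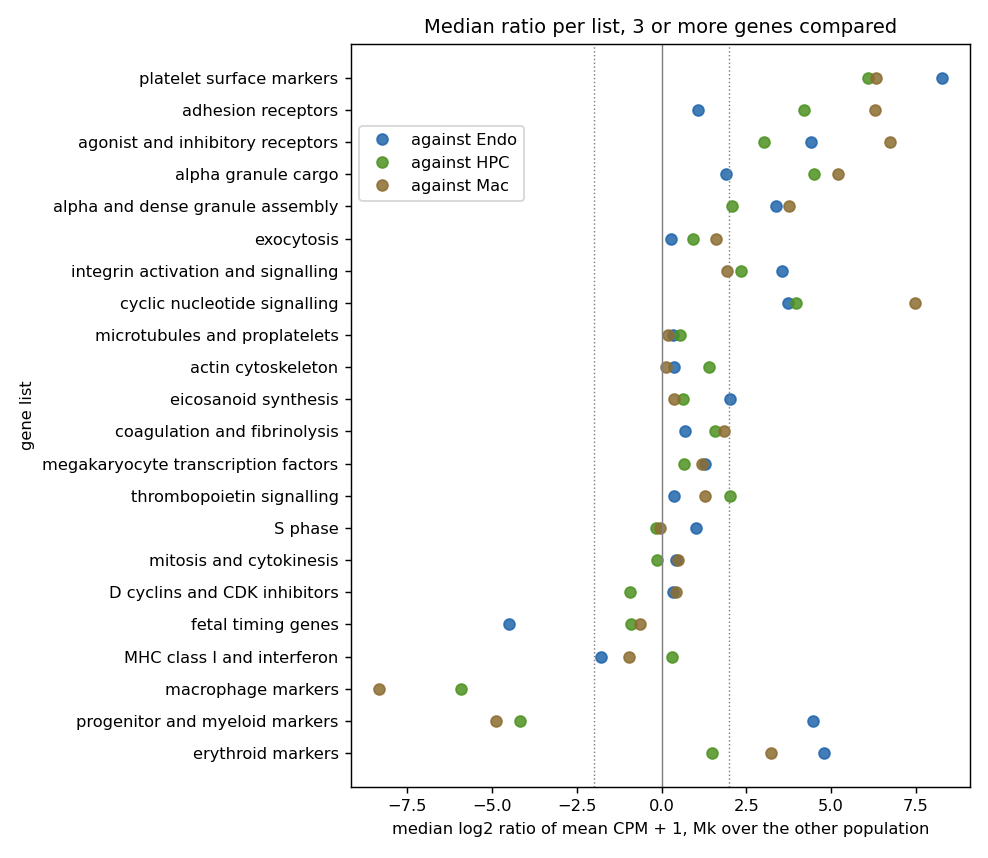
Median log2 ratio of mean CPM + 1 of Mk over Endo, HPC and Mac (points) for each gene list with at least 3 genes compared in HPC, with dotted lines at 4-fold. Platelet surface markers and adhesion receptors include *Itga2b*, and the progenitor list *Ptprc*, both used by the sort. The lists of platelet surface markers, adhesion and agonist receptors, alpha granule cargo, granule assembly, integrin signalling and cyclic nucleotide signalling lie to the right against all 3, from 1.06 to 8.28, the exocytosis list lies at 0.29, 0.94 and 1.62 against Endo, HPC and Mac, microtubule, actin, S phase and mitosis lists lie between -0.17 and 1.40, and macrophage and progenitor lists lie to the left against HPC and Mac.

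Genes that build granules were expressed in part. Of 21 for alpha and dense granule assembly 7 were expressed and 4 of these set apart (57.1%, beside 5.22% of all expressed genes). *Rab27b*, a GTPase of dense granules, was at 36.3 to 2476 CPM in Mk (median 847), 52.8-fold above HPC and 48.0-fold above Endo. *Slc35d3*, needed for dense granules, had 228 CPM in Mk and 24.1 in HPC, and *Vps33b*, an alpha granule protein, 189 and 43.6. *Nbeal2*, the gene of gray platelet syndrome, passed through 1 cell of 9651 CPM, with a mean of 161 CPM, 29.4 CPM without that cell, and a median of 4.38. *Slc6a4*, the serotonin carrier, had 99.1% of its sum in 1 cell. Of 13 exocytosis genes 8 were expressed and 1 of these was set apart (12.5%, beside 5.22% of all expressed genes). This was *Plek*, pleckstrin, the main substrate of protein kinase C in platelets, at 631 to 12601 CPM (median 4517) against a mean of 747 in HPC and no count in Endo. The others were shared, with *Stxbp2* at 421 and 215 CPM in Mk and HPC and *Vamp8* at 162 and 341.

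Microtubule genes as a list lay close to the other populations, whereas actin genes lay above HPC. Of 14 microtubule genes expressed *Tubb1* alone was set apart (7.14%, near the 5.22% of all expressed genes). The list median log2 ratios were 0.35, 0.54 and 0.18 against Endo, HPC and Mac. The actin list had medians of 0.37, 1.40 and 0.14, and 13 of its 33 genes compared with HPC were at least 4-fold higher in Mk and 2 lower, beside 7.90% and 2.56% of all genes. Per kilobase of exon, *Tubb1* made up 27.3% of the beta tubulin CPM in Mk and 0.0721% in HPC, while *Tubb5*, the common isotype, made up 50.7% and 75.5%. Among the alpha tubulins *Tuba4a* made up 16.5% in Mk and 7.02% in HPC, and *Tuba8* 8.21% and 3.81%, and neither had a count in Endo. The actin-bundling plastins were exchanged. *Pls1* made up 92.7% of the plastin CPM per kilobase in Mk and 2.01% in HPC, and *Lcp1*, the leukocyte plastin, 2.11% and 93.9%. *Pls1* was at 2.60 to 2235 CPM in Mk (median 230) and in 17 of 87 HPC (19.5%, 11.8 to 29.4). Of 31 actin genes expressed 5 were set apart (16.1%, beside the same 5.22%). Among them were *Lims1*, the integrin-linked adaptor PINCH1, at 172 to 5226 CPM (median 2247), and *Zyx*, zyxin, at a mean of 1776 CPM against 322 in HPC. *Bin2*, a membrane-bending protein, had 773 CPM in Mk against 145.4 in HPC, and *Daam1*, a formin, 279 against 35.6 in Endo (158.9 in the 61 cells). *Cttn*, cortactin, had 586 CPM in Mk, 199 in Endo and 26.6 in HPC. *Rac2*, the leukocyte Rac, was lower in Mk (192 CPM) than in HPC (911 CPM).

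Of other families, chosen after their values were seen, some showed the same kind of exchange with HPC per kilobase of exon and some did not. *Tln1* made up 99.96% of the talins in Mk and 99.5% in HPC, and *Unc13d* 98.3% and 98.1% of the *Unc13* genes. *Rab27b* made up 82.8% of the *Rab27* pair in Mk and 7.66% in HPC. *Prkar2b* made up 67.4% of 3 regulatory subunits in Mk and 25.1% in HPC. *Slc2a3*, the glucose transporter GLUT3, made up 81.9% of the pair with *Slc2a1* in Mk, 58.4% in Mac, 32.5% in HPC and 2.36% in Endo. Its mean was 743 CPM in Mk against 63.0 in HPC. *Pde5a* made up 73.4% of 3 phosphodiesterases in Mk, and *Pde3b* 0.120% in Mk and 71.8% in HPC. Among the tropomyosins *Tpm4* made up 79.2% in Mk and 34.9% in HPC, but also 72.3% in Endo and 58.3% in Mac. *Actn1* made up 71.4% of the pair with *Actn4* in Mk and 34.4% in HPC. These shares were computed from means, so that a cell with high levels weighs more in them.

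**Figure D4:**
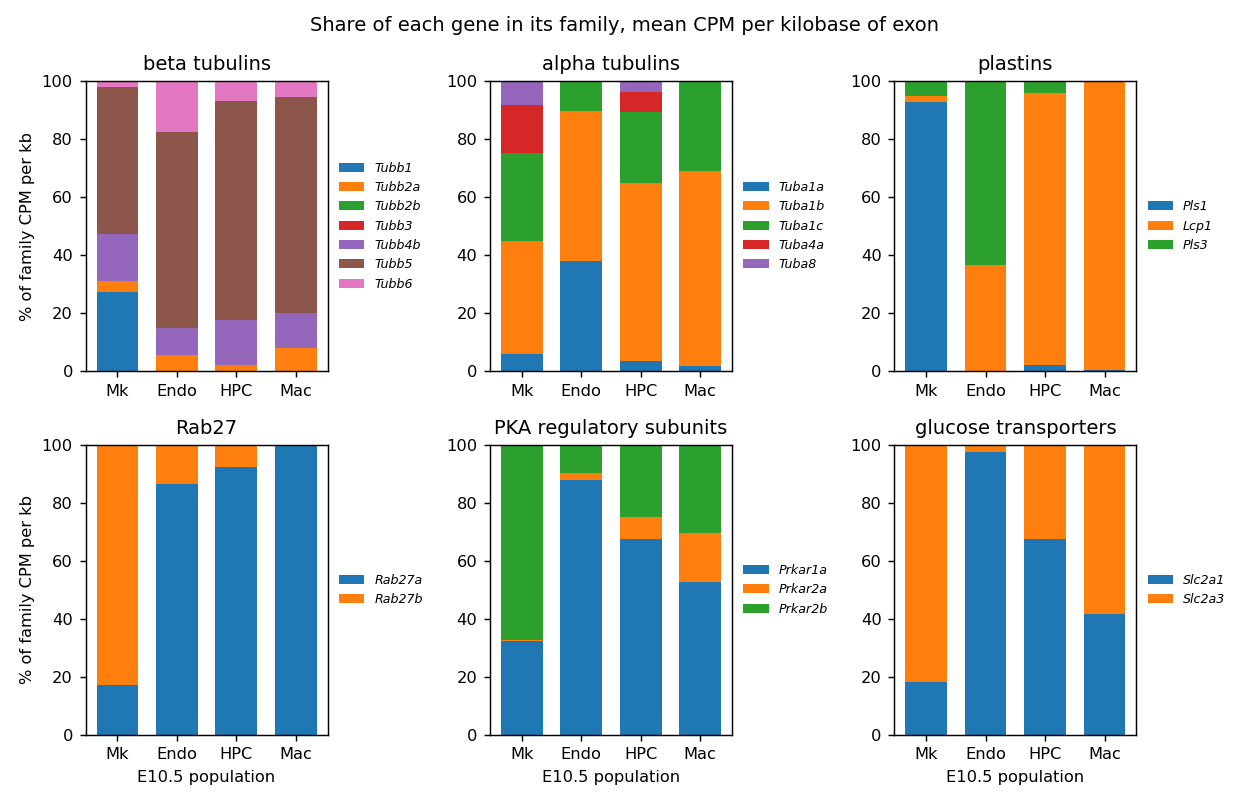
Share of each gene (% of the summed mean CPM per kilobase of exon) in 6 gene families in E10.5 Mk, Endo, HPC and Mac. *Tubb1* appears in Mk only at this scale (27.3% against 0.0721% in HPC), and *Pls1* (92.7%), *Rab27b* (82.8%), *Prkar2b* (67.4%) and *Slc2a3* (81.9%) are the larger part of their family in Mk and the smaller part in HPC.

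Lipid mediators and clotting proteins were represented by a few enzymes. Of 16 eicosanoid genes 9 were expressed and 2 of these set apart (22.2%, beside 5.22% of all expressed genes). *Alox12*, platelet 12-lipoxygenase, had a mean of 281 CPM in Mk (median 74.0) against 55.3 in Endo and 0.170 in HPC, and *Tbxas1*, thromboxane synthase, 117.4 CPM (median 37.0) against 2.52 in HPC. Neither kept the call without the cells of high mitochondrial share, with a smallest log2 ratio of 1.75 for *Alox12* and a mean of 87.8 CPM for *Tbxas1*, and without its highest cell *Tbxas1* had 86.4 CPM. *Pla2g4a*, which frees arachidonic acid (453 CPM), was at 394 CPM in HPC, and *Ptgs1*, cyclooxygenase 1 (422 CPM), at 204. Of 18 coagulation genes 6 were expressed. *F10*, factor X, usually a product of the liver, was in 70 of 73 Mk (lowest 0, median 237, highest 1142 CPM), was 49.0-fold above HPC and had no count in Endo or Mac. *Anxa2*, a surface receptor for plasminogen activator, was at 0.71 CPM in Mk and 1384 in Endo.

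Genes without a standard place in platelet lists were also among the 25 with the largest smallest ratio. *Irs2*, an adaptor of the insulin receptor, was in 73 of 73 Mk (lowest 2.13, median 107.03, highest 2009 CPM), and 70 lay above the highest other cell, at 11.9 CPM. *Irs1* had no count in Mk. *Slc14a1*, a urea transporter, was at 3.45 to 3020 CPM (median 843) and 52.8-fold above HPC. *Sardh*, the mitochondrial sarcosine dehydrogenase, was in 62 Mk (median 63.3 CPM) with no count in Endo or Mac. *Syn3*, a synapsin better known from nerve terminals, was in 57 of 73 Mk (78.1%, 66.9 to 86.9; mean 100.8 CPM, 93.8 without its highest cell). *Ank3*, ankyrin G, had a mean of 269 CPM (171 in the 61 cells) against 5.93 in HPC, and *Tmem40* 347 against 13.4. In all, 51 of the genes set apart stood in one of the gene lists and 65 did not. Among those 65 with the highest means were *Tacc1* (2570 CPM), *Inafm2* (1721 CPM) and *Yod1*, a deubiquitinase (1253 CPM). *Mfsd2b*, a sphingosine 1-phosphate exporter of red cells and platelets, had 539 CPM in Mk and 36.2 in HPC, and *Atp2a3*, the calcium pump SERCA3, 280 and 58.2, with no count in Endo for either.

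Transcription factors of the lineage were for the most part within 4-fold of HPC. Of 35 measured factors 15 were expressed in Mk and 2 of these (13.3%, beside 5.22% of all expressed genes) were set apart, among them *Tal1*, a regulator of all blood lineages (217 CPM against 34.9 in HPC and 40.2 in Endo). Without the cells of high mitochondrial share *Tal1* missed the bound, with a smallest log2 ratio of 1.39. Of 19 factors compared with HPC 15 lay within 4-fold, 2 were higher and 2 lower, and the median log2 ratio was 0.67. *Gata1*, the main factor of both erythroid and megakaryocytic genes, was 3.80-fold above HPC, *Gfi1b*, a repressor, 2.81-fold, *Fli1*, an ETS factor, 2.92-fold and *Nfe2*, needed for platelet release, 1.60-fold. *Runx1* had 199 CPM in Mk and 221 in HPC. The 2 factors lower than in HPC were *Ikzf1* and *Myb*. *Ikzf1*, a lymphoid and myeloid factor, was in 3 of 73 Mk (4.11%, 0.859 to 11.5) with a mean of 0.586 CPM against 170 in HPC, and *Myb* in 12 Mk with 5.67 CPM against 120.6. *Mecom*, *Gfi1* and *Hoxa9* were not detected. The survival gene *Bcl2l1* had 546 CPM in Mk and 134.1 in HPC. *Hmga2*, a fetal chromatin gene, was at 5.35 CPM in Mk and 504 in HPC, whereas *Hmga1* was at 289 and 193.

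Cell cycle genes were expressed in Mk, and those of S phase and mitosis were not among the genes set apart. Of 18 S phase genes 15 were expressed and of 27 mitosis genes 22. Of either 0 were set apart, beside 5.22% of all expressed genes, and on lists this short 0 lies near that share. The S phase list had median log2 ratios of 1.01, -0.17 and -0.03 against Endo, HPC and Mac, and the mitosis list 0.42, -0.13 and 0.47. *Mki67*, the proliferation marker, was in 98.6% of Mk (355 CPM, 284 in HPC), and *Cit*, citron kinase, which acts at the midbody in cytokinesis, had 303 CPM in Mk against 102.04, 70.8 and 34.4 in Endo, HPC and Mac. *Ccnd2* and *Ccnd3*, D cyclins, made up 52.8% and 46.8% of their family per kilobase, and in HPC 84.8% and 12.8%. *Cdk6* had a mean of 97.1 CPM in Mk and 885 in HPC, and *Cdkn2d*, an inhibitor of CDK4 and CDK6, was set apart with 303 CPM against 47.4.

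The 8 genes lower in Mk than in all 3 populations were *Maf*, *Vim*, *Sepp1*, *Ctsb*, *Lgals1*, *Elmo1*, *Lcp1* and *Ubl3*. *Vim*, the intermediate filament vimentin, was in 10 of 73 Mk (13.7%, 6.77 to 23.7) with a highest cell of 143.8 CPM, and its means were 7.11 CPM in Mk and 1108, 158.4 and 559 in Endo, HPC and Mac. *Maf*, a leucine zipper factor, had 2.10 CPM in Mk and 2482, 188 and 1832. In HPC its median was 0.579 CPM, so its mean there came from few cells. *Lcp1* was in 13 Mk (17.8%, 9.84 to 28.5), with 20.8 CPM in Mk and 172, 918 and 2067 in the others. *Ctsb*, a lysosomal protease, had 62.7 CPM against 758, 780 and 1817, and *Sepp1*, selenoprotein P, 14.7 against 2899, 261 and 1000. *Lgals1*, galectin 1, *Elmo1*, a regulator of engulfment, and *Ubl3* had 13.6, 10.8 and 17.6 CPM in Mk. Without the 12 Mk of high mitochondrial share, and the like cells of the other populations, these 8 genes remained and *Cd34*, *Dab2*, *Emb*, *Marcks* and *Mn1* joined them.

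The 12 Mk with a mitochondrial share above 20% differed from the other 61 gene by gene, a contrast described after the values were seen. *Tubb1* had a median of 5.64 CPM in the 12 and 779 in the 61, and 11 of the 12 lay at 19.5 CPM or less, while 60 of the 61 lay at 162 CPM or more. *Slc14a1* had medians of 134.9 and 880 CPM, *Pls1* of 37.7 and 280, *Gp6* of 1.66 and 97.2, and *Bcl2l1* of 36.9 and 602. The opposite was seen for *Thbs1* (7466 and 2178 CPM), *Irs2* (440 and 90.0), *Gnaz* (359 and 117.3), *Prkca* (655 and 170) and *Itgb3* (2098 and 1033), and *Pf4* had medians of 4045 and 4302. Of the genes set apart 30 had a median in the 12 cells at or above that of the 61, and 42 had one more than 4-fold below it. The 12 cells held fewer genes (median 5656 against 7880). Like counts over all expressed genes were not computed, so the 30 and 42 do not show whether the genes set apart differ from the rest. Without them, and the like cells of the other populations, the smallest log2 ratio moved by more than 1.5-fold for 4 of the 25 genes named first, from 6.76 to 6.03 for *Irs2*, 6.37 to 5.69 for *Ppbp*, 5.29 to 4.62 for *Ank3* and 6.32 to 7.06 for *Pf4*. Damage, size or state of these cells was not tested.

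Cells varied most where single cells set the mean. The 10 genes of at least 100 CPM with the largest squared coefficient of variation for their mean (*Cdc27*, *Fam76a*, *Ccdc25*, *Csf2rb*, *Tmem126b*, *Ctsc*, *Ube2l6*, *Uqcrfs1*, *Slc6a4* and *9530068E07Rik*) each had between 66.5% and 99.1% of their sum in 1 cell, which was 1 of the 12 in every case. *Cdc27*, for example, was at 29452 CPM in its highest cell, at 654 in the next and had a median of 51.3. Among the other 61 cells the most variable genes were *Hbb-bh1*, *Sat1*, *Ppbp*, *Gm43361*, *Herpud1*, *Btg1*, *Inafm2*, *Top2a*, *Pf4* and *Srsf2*, and 0 genes were shared with the first 10. *Ppbp* had quartiles of 0.283 and 136.9 CPM there, and *Top2a*, a gene of dividing cells, 131.3 and 1156. The evenest of the set apart genes were *Rabgap1l* (39.7 to 1882 CPM), *Susd3*, *Lat* and *Lims1*.

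The relation between alpha granule cargo and S phase genes across Mk turned with the scaling. On counts thinned to one depth, Pearson's r between the log2 sums of the lists was -0.30 (Spearman's rho -0.37) over 73 Mk and -0.61 (-0.54) over the 61 cells. These cells share 1 library pool, and sums taken at a fixed total are not free of each other. On counts at full depth, which rise together with depth, r was 0.20 (0.23), and on CPM -0.67 (-0.61). With the mitosis list r was -0.02 on thinned counts.

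**Figure D5:**
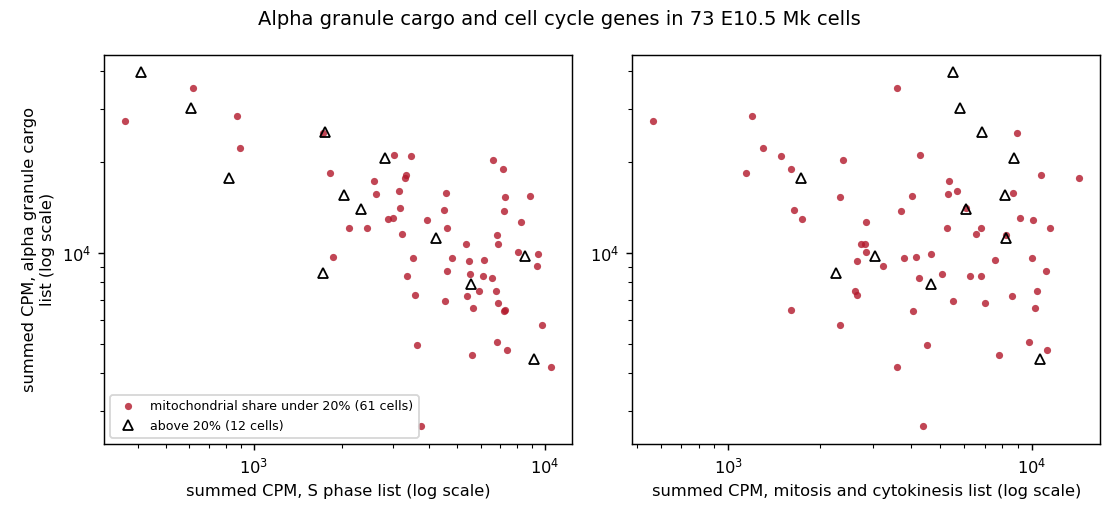
Summed CPM of the alpha granule cargo list (y, log scale) against that of the S phase list (left) and the mitosis and cytokinesis list (right, both log scale) in each of 73 E10.5 Mk, with the 12 cells of a mitochondrial share above 20% as triangles. The points fall from upper left to lower right on the left (r = -0.67 on CPM, 0.20 on unscaled counts).

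Embryonic globin was spread unevenly over the Mk. *Hbb-bh1*, an embryonic beta-like globin gene, was in 58 of 73 Mk (79.5%, 68.4 to 88.0), with a median of 7.59 CPM and a highest cell of 4999, and 19 Mk had 100 CPM or more. The means were 315 CPM in Mk, 5.89, 4.11 and 8.23 in Endo, HPC and Mac and 144457 in EryP. The ratio of *Hbb-bh1* counts to those of *Hbb-y*, another embryonic beta-like globin gene, was 24.7 in Mk, 3.77 in HPC, 0.521 in Mac, 0.237 in Endo and 0.552 in EryP. Of 13 erythroid markers *Hbb-bh1*, *Car2* and *Tfrc* were expressed in Mk, and *Slc4a1* and *Rhag* were not detected. The part of free RNA in these counts was not tested.

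Of the genes set apart 55 had a mean of 100 CPM or more in E8.5 Mk (47.4%), beside 80.5% of all genes expressed in E10.5 Mk. A lower mean than at E10.5 was found for 94.8% of the genes set apart and 49.5% of all expressed genes, and one lower by 4-fold or more for 43.1% and 6.39%. The genes set apart were chosen for a high mean in E10.5 Mk, so these shares are a description. *Thbs1* was at 709 CPM, *Tubb1* at 243 and *Pf4* at 163 at E8.5, while *Hbb-bh1* was at 22619 CPM.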

How the data were processed

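Single-cell RNA-seq of E10.5 yolk sac Mk, Endo, HPC, Mac and EryP and of E8.5 Mk was used. Per the paper's methods, the authors aligned reads with Rsubread to Ensembl release 84 (GRCm38), counted them per gene with featureCounts, removed poor cells and genes with scater and scaled the counts with scran. The deposited read counts hold 15967 genes in 926 filtered cells and 47643 genes in 1073 captured cells. The deposited signal values are CPM, which within a cell were the counts times 1 factor. The CPM of an Mk summed to between 863815 and 4176737. Of the filtered columns 640, and of the unfiltered columns 699, belong to populations that were not used here.

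Members and gene lists were chosen with earlier results of these data known. Gene families and the contrast of cells by mitochondrial share were chosen after their values were seen. Expressed genes had a mean of 100 CPM and detection in 50% of cells, and a gene was called past 4-fold on the ratio of mean CPM + 1. Named genes were the 25 with the largest smallest ratio over the 3 populations, all genes lower in Mk (at most 10), the 10 most variable, and members of 25 gene lists. Some of these genes are not reported here. Each population was 1 capture and cells are not replicates, so no test was run and no p-value is given. Shares carry exact (Clopper-Pearson) 95% intervals. A count of 0 allows a share of up to 3 cells of the total, and no fold is given against a group without a count. Thinned counts were drawn at 480000 per cell. Transcripts of both sexes were taken as present where *Xist* and the sum of 4 Y-linked genes each reached 5 counts. Symbols were matched to GENCODE M21 (GRCm38), where 15381 had a single Ensembl ID. *G6b* and *Sepp1* had no match. Reads were counted without molecular identifiers. Overlapping genes and close paralogues could share reads. Promoter windows came from RefSeq, and 89 of the 116 genes set apart had at least 1. Calls were tested on simulated data. Under the alternatives, genes past 4-fold between a pair of populations are given as a percent of the genes compared, and whether their number moved by over 1.5 times was judged on the counts. Alternatives were another scaling, pseudocount, summary, filter and depth, all captured cells, and leaving out cells with transcripts of both sexes, and leaving out cells of a high mitochondrial share or the marker used by the sort was added after seeing the data. The software was Python 3.11.15 with scipy 1.17.1, pandas 2.3.3, matplotlib 3.10.9 and numpy 2.4.6.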

Additional observations from a re-analysis of the deposited data

How the results depend on the processing

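The number of genes set apart stayed within a factor of 1.5 under the other scaling, the larger pseudocount, the median, thinned counts, all captured cells and without cells of both sexes or of a mitochondrial share above 20%. It was 336 with a filter at a mean of 1 CPM and no share of cells, and 55 at a mean of 300 CPM. Of the genes called, 94 of 97 were shared with the main list when cells were scaled by their own total, 93 of 97 on thinned counts and 80 of 96 over all captured cells, where 5 genes of the main list, *G6b* among them, were not in the table under their symbol. The 25 named genes were called under every alternative, except *Hbb-bh1* on medians, *Syn3* over all captured cells (*G6b* could not be called there), and 11 genes at the filter of 300 CPM. The 8 lower genes became 16 on medians, 257 at 1 CPM, 1 at 300 CPM and 13 without the cells of high mitochondrial share. Against HPC, 686 of 13824 genes (4.96%) were higher and 905 (6.55%) lower at 1 CPM, and 14.7% of 686 were higher and 1.60% (11 genes) lower at 300 CPM. Against Endo, 1267 genes (8.99%) were higher and 2304 (16.3%) lower at 1 CPM, and 99 (11.2%) higher and 208 (23.5%) lower at 300 CPM. Against Mac, 1741 (12.9%) were higher and 1577 (11.7%) lower at 1 CPM, and 99 (9.46%) higher and 249 (23.8%) lower at 300 CPM. Each of these numbers differed from that at the main filter by over 1.5 times. On medians 1129 genes (35.3%) were higher than in Endo, 168 (6.51%) lower than in HPC, and 1003 (32.6%) higher and 261 (8.49%) lower than in Mac. A filter changes how many genes are compared, and beyond that the cause was not tested. All 6 markers were found at 10 counts or more in 47.9% of Mk, and leaving out *Itga2b* did not change the share of 75.3% at 1 count. The correlation of cargo with S phase genes was 0.20 at full depth, where its sign turned, and -0.61 without the cells of high mitochondrial share. At the filter of 1 CPM the median of the endothelial list against HPC turned to -1.30 and that of the macrophage list against Endo to 0.0023. Of the values of named genes and lists, 716 stayed within a factor of 1.5 or on their side of 4-fold. A further 192 moved. A change of sign was counted for list medians only where the median was past 4-fold in the main setting, and by this rule the 2 list medians just named turned. No paired analysis was possible because each population is 1 sample without replicate numbers. Each population was captured once, so no share or level has an error between captures, and a gene of few counts can be missed in a shallow cell.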
